A study of Mus musculus with 16 samples.

Results

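A set of 10 mouse genes known as markers of mammary stem and progenitor cells or of retinoic acid synthesis and response was followed through 16 RNA libraries of sorted 4T07 tumour cells. Its genes were chosen by symbol, and all 10 were found among the 49139 genes with a symbol: Aldh1a1, Aldh1a2, Aldh1a3, Cd44, Cd24a, Procr, Prom1, Sox9, Ly6a and Rarb. 4T07 is a mouse mammary carcinoma line. Mixed tumours were grown from 250000 cells, transduced with GFP or with mCherry, in the mammary fat pad of female hybrids of C57BL/6J and Balb/cJ. Jedi T cells, which recognise GFP and here lacked PD1, were injected on day 15 or on day 7 of tumour growth, and tumours were collected 7 days after that injection. The 5 groups were surviving GFP cells (n = 3) and mCherry cells (n = 3) of the same tumours injected on day 15, surviving GFP cells (n = 3) and mCherry cells (n = 3) of the same tumours injected on day 7, and, as controls, 4 tumours of mCherry cells alone without Jedi T cells. The sources used here do not give the promoter that drives each reporter, the age of the mice or the gate on CD45. No library came from GFP cells of a tumour without Jedi T cells, so the reporter and the T cell attack cannot be told apart in any GFP to mCherry difference.

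Aldh1a1, Aldh1a2 and Aldh1a3 encode the retinaldehyde dehydrogenases, which oxidise retinaldehyde to retinoic acid, and Rarb encodes a nuclear receptor that binds retinoic acid and is itself a textbook retinoic acid target. High aldehyde dehydrogenase activity, and high CD44 with low CD24 at the cell surface, are used in breast cancer research to enrich cells that start new tumours. Procr, the protein C receptor, marks multipotent cells of the mouse mammary gland, and Sox9 is a transcription factor of luminal progenitors. Ly6a, better known as Sca-1, is a small surface protein used to sort progenitors, and Prom1 encodes CD133, a membrane glycoprotein of stem cells in several tissues.

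Promoter windows are shown for Rarb, as a textbook retinoic acid target, and for Aldh1a1, which showed the largest GFP to mCherry difference. The windows run from 250 bases before to 50 bases after the annotated start (RefSeq, GRCm38.p6), and 6 of the 10 genes had an entry. The Rarb window lies at chr14:16575427-16575726 on the minus strand, and its capitals mark a pair of retinoic acid receptor binding hexamers 5 bases apart.

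Rarb: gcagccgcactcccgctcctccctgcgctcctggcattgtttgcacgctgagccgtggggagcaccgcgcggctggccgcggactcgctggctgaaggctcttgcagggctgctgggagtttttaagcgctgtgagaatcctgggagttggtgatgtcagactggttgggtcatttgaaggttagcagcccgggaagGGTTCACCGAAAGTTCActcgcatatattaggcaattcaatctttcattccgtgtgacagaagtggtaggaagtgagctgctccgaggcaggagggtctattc

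The hexamer searched was A or G, then G, then G or T, then TCA, followed after 5 bases by another such hexamer, on both strands. This pair began at position −53 from the start of Rarb and was found in 32 of 32851 promoter windows of the same length (0.0974%). A GAS motif (TTCNNNGAA, in 8.3% of windows) overlapped it from position −51. None of the other 7 windows of these genes held the response element, which says only that these letters are not in those windows. Aldh1a1 has 2 annotated starts, with windows at chr19:20492333-20492632 and chr19:20601718-20602017, both on the plus strand. Capitals mark an AP-1 motif (TGACTCA, in 5.2% of windows) in the upstream window and CCAAT motifs (in 37.4% of windows) in the other.

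Aldh1a1 upstream start: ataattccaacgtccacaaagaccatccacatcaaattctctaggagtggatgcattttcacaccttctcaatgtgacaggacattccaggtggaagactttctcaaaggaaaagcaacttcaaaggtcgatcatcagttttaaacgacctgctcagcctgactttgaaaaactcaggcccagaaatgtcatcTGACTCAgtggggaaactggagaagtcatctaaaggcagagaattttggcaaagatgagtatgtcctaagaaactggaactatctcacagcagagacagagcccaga

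Aldh1a1 downstream start: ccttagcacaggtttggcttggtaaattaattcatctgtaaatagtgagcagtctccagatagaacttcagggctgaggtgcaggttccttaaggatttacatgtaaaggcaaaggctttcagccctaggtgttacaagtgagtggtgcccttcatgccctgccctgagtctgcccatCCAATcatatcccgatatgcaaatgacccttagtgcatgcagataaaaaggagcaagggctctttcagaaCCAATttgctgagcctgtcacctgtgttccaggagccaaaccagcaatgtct

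Reads of close paralogues can be split or shared between genes, so the first 90 coding bases of Aldh1a1 and Ly6a are set beside those of the paralogues with which they share most sequence. Capitals mark the bases that differ within each pair.

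Aldh1a1: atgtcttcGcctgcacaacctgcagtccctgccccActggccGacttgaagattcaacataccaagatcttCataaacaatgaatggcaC

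Aldh1a7: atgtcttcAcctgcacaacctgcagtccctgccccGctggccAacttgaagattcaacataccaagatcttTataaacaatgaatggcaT

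Ly6a: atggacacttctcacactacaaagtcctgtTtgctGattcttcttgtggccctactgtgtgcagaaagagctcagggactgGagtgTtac

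Ly6c1: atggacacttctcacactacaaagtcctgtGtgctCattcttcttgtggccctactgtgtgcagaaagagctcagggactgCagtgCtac

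The Aldh1a1 and Aldh1a7 coding sequences were 91.6% identical over their length, with 5 differences in the stretch shown, and those of Ly6a and Ly6c1 81.8% identical, with 4 differences. Of all stretches of 75 bases in the transcripts of a gene, 1.01% in Aldh1a1 and 6.33% in Ly6a also occurred in another gene. The share was 32.1% in Rarb, whose end overlaps Top2b on the opposite strand, and the sources used here do not say whether the counting used strand. Cd44, Procr, Sox9 and Aldh1a2 shared none, and Cd24a, Aldh1a3 and Prom1 shared 1.1%, 0.587% and 3.65%.

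Library totals were 21183324 to 24880582 counts for the day 15 GFP cells and 21832170 to 22248031 for their mCherry cells, 9412040 to 14535791 for the day 7 GFP cells and 12942893 to 19970822 for their mCherry cells, and 24367417 to 32808354 for the controls. Day 15 and control libraries were sequenced in run 2 and day 7 libraries in run 1, so day and run cannot be told apart. The tumour label was checked on Krt8 and Krt18, keratins of luminal epithelium, which averaged 375 to 822 and 104 to 385 CPM (counts scaled to the library total) over the 5 groups, while Epcam, an epithelial adhesion protein, averaged 0.985 to 1.60 CPM. The basal keratins Krt5 and Krt14 averaged at most 0.576 and 0.197 CPM. Of the other mammary epithelium markers, Krt19 and Trp63 averaged at most 2.18 and 2.88 CPM, and Elf5 and Wap at most 0.280 and 0.0595 CPM. Csn3 averaged 16.2 to 150 CPM. The markers of this list were thus high in part only. Markers of host cells moved with colour. On day 15, 4 of 8 tested macrophage markers and 3 of 10 endothelial markers were lower in GFP cells, none were higher, and their summed levels were 53.2 to 72.0 and 9.09 to 13.3 CPM in GFP cells against 85.7 to 106 and 10.6 to 35.4 CPM in mCherry cells. On day 7, all 10 macrophage and all 8 tested endothelial markers were lower in GFP cells, with sums of 92.5 to 143 and 5.83 to 6.79 CPM in GFP cells against 509 to 656 and 28.9 to 53.5 CPM in mCherry cells. No defining marker of either list was at 0 in any group. Of other host lists, the neutrophil markers S100a8 (−1.97) and S100a9 (−1.59), the stromal markers Pi16, Lum and Cd34 (3 of 9 tested) and the adipocyte marker Cidec (1 of 6) were lower in GFP cells on day 15, and S100a8 (−1.37), Pi16 (−2.48) and the adipocyte marker Fabp4 (−3.65) on day 7, with none higher. The summed stromal level overlapped between colours on day 15, at 698 to 824 CPM in GFP cells against 668 to 798 CPM in mCherry cells. On day 7 it was 191 to 239 CPM in GFP cells against 267 to 341.5 CPM in mCherry cells. Pdgfra, the stromal marker of highest level, was not called on day 15 (0.28) or day 7 (−0.11). Of 10 T and NK cell markers, 0 were tested on day 15 and 1 on day 7, which was not called. The sums of these T and NK cell markers overlapped between colours. They were 0.246 to 0.498 CPM in GFP cells against 0.325 to 0.513 CPM in mCherry cells on day 15. On day 7 they were 1.19 to 5.85 CPM in GFP cells against 1.55 to 4.38 CPM in mCherry cells. Against controls, day 15 GFP cells had 7 of 10 macrophage markers lower, among them C1qa (−3.70) and Lyz2 (−3.18). Their part in the results below was not tested, and in bulk RNA fewer cells of a type and less RNA per cell cannot be told apart.

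Among the 10 genes, Aldh1a1, Cd24a and Ly6a were higher in surviving GFP cells than in mCherry cells of the same tumours on both days. Sox9 was higher in GFP cells on day 7, and Cd44 was lower in GFP cells on day 15. Calls were made with edgeR's quasi-likelihood test with tumour as a block, at a Benjamini-Hochberg adjusted p below 0.05 over all genes. On day 15, 6 of the 10 had enough counts to be tested and 4 were called, 3 higher and 1 lower, beside 19.5% of all 14260 genes tested (8.94% higher and 10.6% lower). The median log2 fold change of the 6 was 0.60, beside 0.0065 over all genes. On day 7, again 6 were tested and 4 called, all higher, beside 18.2% of 14578 genes (8.89% higher and 9.33% lower), with a median of 0.61 beside −0.0037. Aldh1a2, Aldh1a3, Prom1 and Rarb did not pass the filter on low counts in either comparison. The 10 genes were chosen with earlier results of these data known, so their shares and medians are descriptions, not a test of the set.

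**Figure D1:**
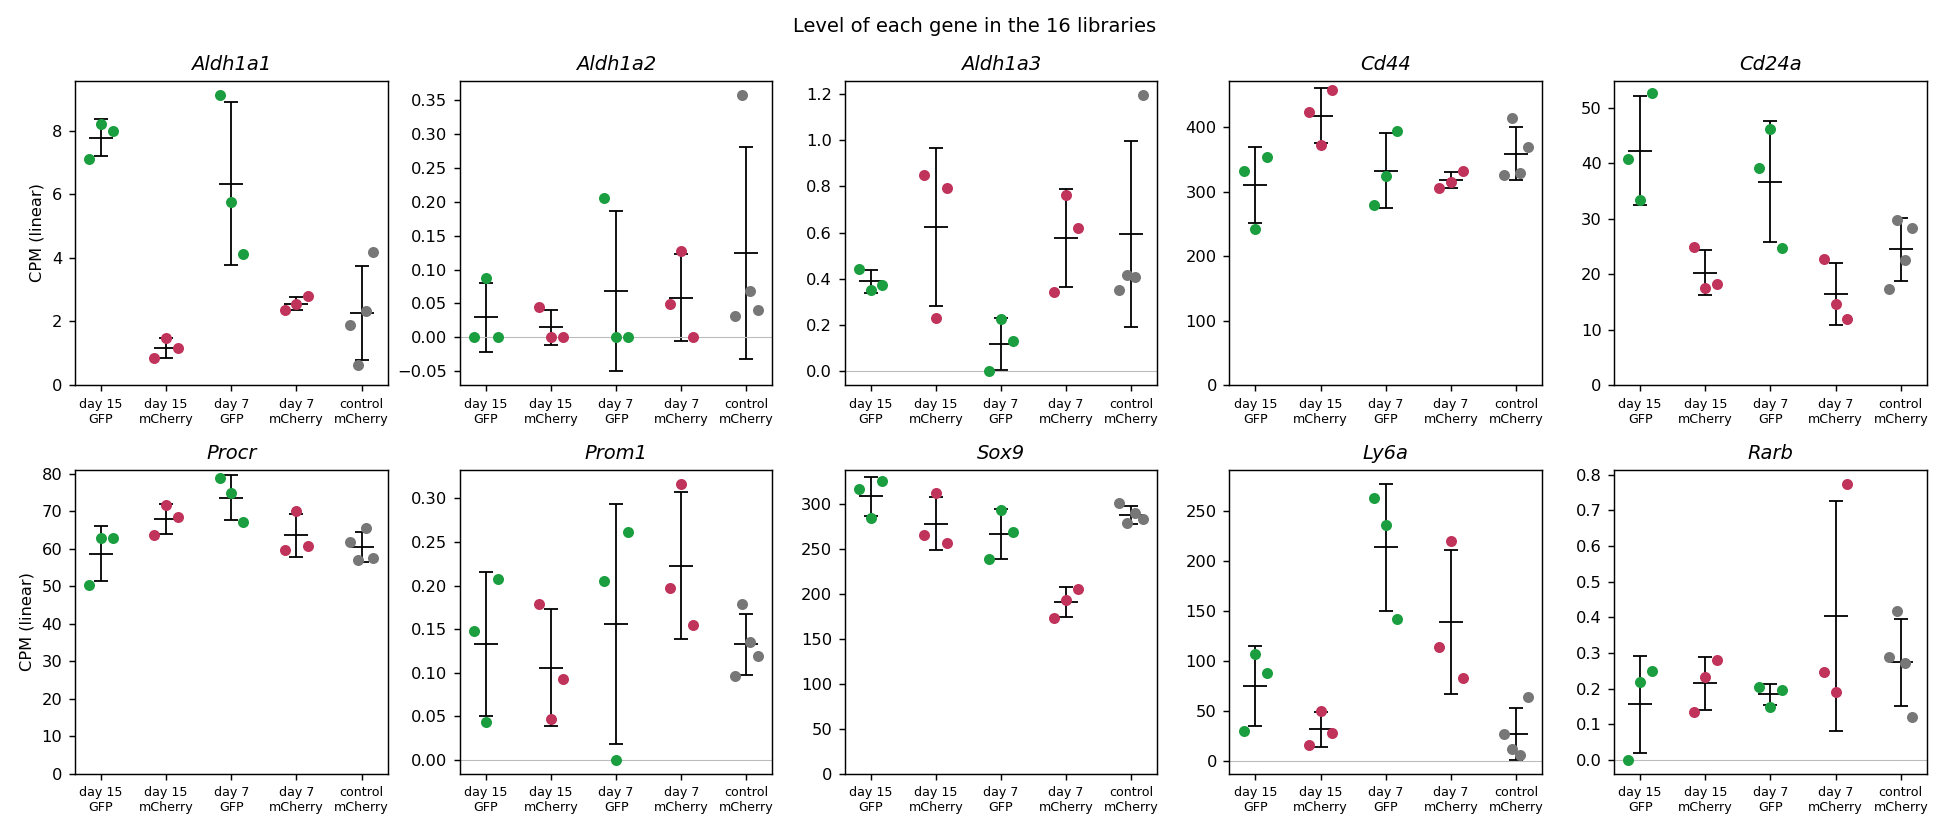
Level of each of the 10 genes in CPM on a linear scale (y) in the 16 libraries, by group (x). Points are libraries, horizontal bars are means and error bars are SD (n = 3 per mixed tumour group, n = 4 controls). The Aldh1a1 points of day 15 GFP cells lie at 7.13 to 8.22 CPM, above every mCherry point of the mixed and control tumours, and Aldh1a2, Prom1 and Rarb lie below 1 CPM throughout.

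Aldh1a1 (chr19:20492715-20643465, plus strand, GRCm38) showed the largest difference of the 10 genes. On day 15 it stood at 7.13, 8.22 and 8.00 CPM in GFP cells of tumours 1, 2 and 3, against 0.847, 1.48 and 1.17 CPM in their mCherry cells. The 2 groups did not overlap, and GFP cells were higher in each tumour. The means were 7.79 ± 0.580 CPM in GFP cells against 1.17 ± 0.318 CPM in mCherry cells (SD, n = 3 each), a 6.72-fold difference (log2 fold change 2.75, SE 0.225, 95% interval 2.25 to 3.25, adjusted p = 6.53e-05). On day 7 it stood at 9.14, 5.75 and 4.12 CPM in GFP cells of tumours 2, 3 and 4, against 2.36, 2.54 and 2.79 CPM in their mCherry cells. The groups again did not overlap, but the excess in GFP cells was unequal, with log2 differences of 1.91, 1.15 and 0.55 in tumours 2, 3 and 4. The fitted log2 fold change on day 7 was 1.27 (SE 0.304, 95% interval 0.59 to 1.95, adjusted p = 0.0175). Without tumour 2 it was 0.89 (adjusted p = 0.117) and without tumour 3 it was 1.32 (adjusted p = 0.0579), so neither of these fits gave a call, although the difference was as large without tumour 3.

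The excess of Aldh1a1 in GFP cells was larger on day 15 than on day 7 by 1.48 on the log2 scale (SE 0.395, 95% interval 0.62 to 2.33, unadjusted p = 0.00259), which did not pass after adjustment over 16626 genes (adjusted p = 0.188). Without the filter on low counts the adjusted p of the same difference was 0.00659, but that fit called 354 of all genes, against 35 with the filter. It was 0.118 with DESeq2, 0.200 with DESeq2's size factors in edgeR and 0.189 with a minimum of 50 counts. Against the controls, which stood at 1.89, 0.626, 2.33 and 4.19 CPM, day 15 GFP cells were 3.49-fold higher (log2 fold change 1.80, SE 0.457, adjusted p = 0.0373). The call was lost in 5 of the 7 fits that left out a library, in which the log2 fold change was 1.73 to 1.86, and macrophage markers were lower in the same comparison, as given above. Day 15 mCherry cells lay below the control mean of 2.26 ± 1.48 CPM (SD, n = 4), with a log2 fold change of −0.95 (95% interval −2.20 to 0.31) that was not called (adjusted p = 0.449). Control 2, at 0.626 CPM, was lower than each day 15 mCherry library, and control 4 was slightly above the lowest day 7 GFP library. In order of their means the groups ran from day 15 GFP and day 7 GFP cells, whose ranges overlapped, to day 7 mCherry, control and day 15 mCherry cells, whose neighbouring ranges also overlapped.

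The other retinaldehyde dehydrogenases were near the limit of detection. Aldh1a2 (chr9:71215789-71296243) had at most 2 counts in any mixed tumour library and 1, 12, 2 and 1 counts in the controls. Aldh1a3 (chr7:66390890-66427517), an enzyme of luminal progenitors, had 9, 8 and 9 counts in day 15 GFP cells against 19, 5 and 17 in day 15 mCherry cells, and 0, 3 and 2 counts in day 7 GFP cells against 7, 12 and 8 in day 7 mCherry cells. The day 7 counts of Aldh1a3 did not overlap between colours and were lower in GFP cells of each tumour, the opposite side from Aldh1a1, but the gene was not tested there. Without the filter its day 7 log2 fold change was −2.24 (adjusted p = 0.158). Per exon length, Aldh1a1 made up 93.6% to 95.3% of the summed level of the 3 genes in day 15 GFP cells against 45.8% to 85.7% in day 15 mCherry cells. On day 7 it made up 95.3% to 96.7% in GFP cells against 69.9% to 83.2% in mCherry cells, and 33.8% to 80.9% in the controls.

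Aldh1a7 (chr19:20692953-20727562), the rodent paralogue next to Aldh1a1 shown above, had at most 17 counts in a library. It averaged 0.317 ± 0.114 CPM in day 15 GFP cells and 0.439 ± 0.277 CPM in day 15 mCherry cells, and 0.392 ± 0.0189 CPM in day 7 GFP cells and 0.265 ± 0.176 CPM in day 7 mCherry cells (SD, n = 3 each). It was too low to be tested in the within-tumour comparisons.

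Genes that make and store retinoids were called about as often as all genes on day 15 and in a somewhat larger share on day 7, without a test of the list. Over the 9 lists described from here on, the share of tested genes that were called was 15.4% to 42.9% on day 15 and 15.4% to 60% on day 7, beside 19.5% and 18.2% of all genes, and some lists held few tested genes. Genes of the lists below that are given with an adjusted p are among the 2 of smallest p in a list and comparison, and those with a log2 fold change alone were named after their values were seen. On day 15, 16 of 25 genes of retinoid uptake, storage and synthesis were tested, of which 2 were higher and 1 lower in GFP cells (18.8% called, beside 19.5% of all genes), with a median log2 fold change of 0.042. Adh7, an alcohol dehydrogenase that oxidises retinol, averaged 2.52 ± 0.181 CPM in GFP cells against 1.11 ± 0.471 CPM in mCherry cells (log2 fold change 1.23, adjusted p = 0.0240), and Rdh5, a retinol dehydrogenase, was higher too (0.59). Rdh10, the retinol dehydrogenase that supplies most embryonic retinaldehyde, was lower (−0.39, adjusted p = 0.0216). On day 7, 15 of 25 were tested, 1 higher and 3 lower (26.7%, beside 18.2%), with a median of 0.052. Rdh10 (−0.65, adjusted p = 0.00722) and the reductase Dhrs4 (−0.67) were among those lower, while Adh7 was again higher (1.11). Rdh10 and Adh7 therefore differed from mCherry cells in the same direction on both days.

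Rarb (chr14:16430839-16819156, minus strand), whose promoter holds the response element printed above, had 0, 5 and 6 counts in day 15 GFP cells against 3, 5 and 6 in day 15 mCherry cells, 2, 2 and 3 in day 7 GFP cells against 5, 3 and 10 in day 7 mCherry cells, and 3 to 14 in the controls. Its level was too low for a test of GFP against mCherry cells, and its reads cannot be told apart from those of Top2b where the 2 genes overlap. Top2b averaged 154 ± 8.10 CPM in day 15 GFP cells and 142 ± 7.80 CPM in day 15 mCherry cells. Of 20 further genes of retinoic acid binding, reception, breakdown and response, 14 were tested on day 15, of which 1 was higher and 3 lower in GFP cells (28.6% called, beside 19.5% of all genes, median 0.10). Crabp2, which carries retinoic acid to its receptors, was higher in GFP cells on both days. It averaged 24.7 ± 1.28 CPM in GFP cells against 14.4 ± 3.86 CPM in mCherry cells on day 15 (0.81, adjusted p = 0.00526), and 29.7 ± 2.67 CPM in GFP cells against 15.4 ± 1.57 CPM in mCherry cells on day 7 (0.97, adjusted p = 0.00130). On day 15 the coregulator Nrip1 (−0.38) and the retinoic acid hydroxylase Cyp26b1 (−0.93) were among those lower in GFP cells. On day 7, 13 were tested, Crabp2 was the 1 higher and Nrip1 the 1 lower (−0.38, adjusted p = 0.0454), with a median of 0.099. The share called was 15.4%, beside 18.2% of all genes. The receptors Rara, Rarg, Rxra and Rxrb were tested on both days and none was called.

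Of 17 other aldehyde dehydrogenases, 13 were tested on each day, of which 2 were called on day 15 (15.4%, beside 19.5% of all genes) and 4 on day 7 (30.8%, beside 18.2%). The day 15 calls were Aldh3a1 (0.91, adjusted p = 0.00665), a detoxifying enzyme that was higher in GFP cells, and Aldh16a1 (−0.55, adjusted p = 0.0104), which was lower, and the list median was 0.048. On day 7, Aldh18a1 of proline synthesis (0.63, adjusted p = 0.00231), Aldh1l2 of folate metabolism (0.75) and Aldh5a1 of GABA breakdown (0.91) were higher and Aldh4a1 of proline breakdown (−1.42, adjusted p = 0.00648) lower, and the median was 0.19. No gene of this list was called on both days.

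**Figure D2:**
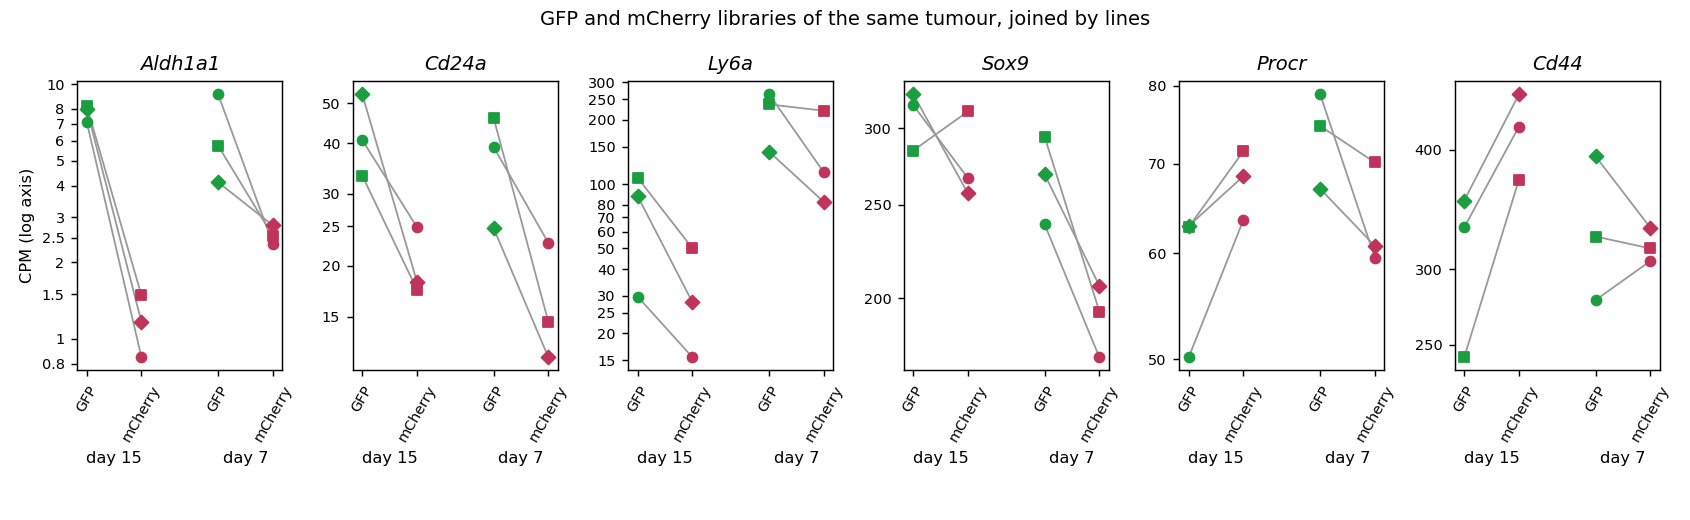
CPM on a log axis (y) of the 6 tested genes in GFP and mCherry libraries (x), with lines joining the libraries of a tumour. Marker shapes stand for tumours 1, 2 and 3 on day 15 and 2, 3 and 4 on day 7 (circle, square, diamond). Every line of Aldh1a1, Cd24a and Ly6a is higher at the GFP end, every day 15 line of Cd44 and Procr is lower there, and the Sox9 line of day 15 tumour 2 runs against the other day 15 lines.

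Cd24a (chr10:43578284-43584265, plus strand), a heavily glycosylated surface protein of luminal and other epithelial cells, was higher in GFP cells on both days. On day 15 it stood at 40.7, 33.3 and 52.7 CPM in GFP cells of tumours 1, 2 and 3, against 24.9, 17.5 and 18.3 CPM in their mCherry cells. On day 7 the values were 39.1, 46.1 and 24.8 CPM in GFP cells of tumours 2, 3 and 4, against 22.8, 14.6 and 11.9 CPM in their mCherry cells. The colours did not overlap on either day, and the GFP library was the higher one in each of the 6 tumours. The log2 fold change was 1.05 on day 15 (SE 0.144, 95% interval 0.73 to 1.37, adjusted p = 9.20e-04) and 1.18 on day 7 (SE 0.172, 95% interval 0.80 to 1.56, adjusted p = 0.00147). The difference between these effects was −0.12 (95% interval −0.66 to 0.41, adjusted p = 0.917). The controls, at 17.4, 29.7, 22.5 and 28.3 CPM, lay below all 3 day 15 GFP libraries, which were 1.73-fold higher (log2 fold change 0.79, SE 0.205, adjusted p = 0.0401). This call too was lost in 5 of the 7 fits that left out a library (log2 fold change 0.60 to 0.94), while the range of day 15 mCherry cells overlapped that of the controls (−0.28, adjusted p = 0.542).

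Cd44 (chr2:102811141-102901665, minus strand), the receptor of hyaluronan, was abundant in every library. On day 15 it stood at 332, 243 and 354 CPM in GFP cells of tumours 1, 2 and 3, against 423, 373 and 458 CPM in their mCherry cells. These groups did not overlap, and GFP cells were 1.36-fold lower (log2 fold change −0.45, SE 0.0875, 95% interval −0.64 to −0.25, adjusted p = 0.00632). Without tumour 2 its adjusted p was 0.0661, and without the tumour block 0.0736, so that neither fit gave a call. On day 7 it stood at 279, 325 and 394 CPM in GFP cells of tumours 2, 3 and 4, against 306, 316 and 332 CPM in their mCherry cells, with overlapping groups and a log2 fold change of 0.07 (95% interval −0.17 to 0.30, adjusted p = 0.703). The day 15 effect was lower than the day 7 effect by −0.51 on the log2 scale (95% interval −0.83 to −0.20, unadjusted p = 0.00371), which did not pass after adjustment (adjusted p = 0.212, and 0.0499 without the filter on low counts). The fit without the filter called 354 of all genes for this difference, against 35 with it. Control libraries, at 326 to 414 CPM, overlapped day 15 GFP cells (−0.21, adjusted p = 0.329) and day 15 mCherry cells (0.21, adjusted p = 0.392), and neither was called.

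The ratio of Cd44 to Cd24a, each in RPKM, which is CPM divided by exon length, is given as a description that was added after the values were seen. It averaged 2.81 ± 0.275 in day 15 GFP cells and 8.04 ± 1.53 in day 15 mCherry cells (SD, n = 3 each), with ranges of 2.56 to 3.11 and 6.48 to 9.53 that did not overlap. On day 7 it averaged 3.82 ± 1.94 in GFP cells and 7.98 ± 2.74 in mCherry cells, with ranges of 2.68 to 6.06 and 5.12 to 10.6 that overlapped through GFP cells of tumour 4. The controls averaged 5.74 ± 0.971 (n = 4). The ratio was lower in GFP cells than in mCherry cells of each of the 6 tumours, on the RNA level only.

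**Figure D3:**
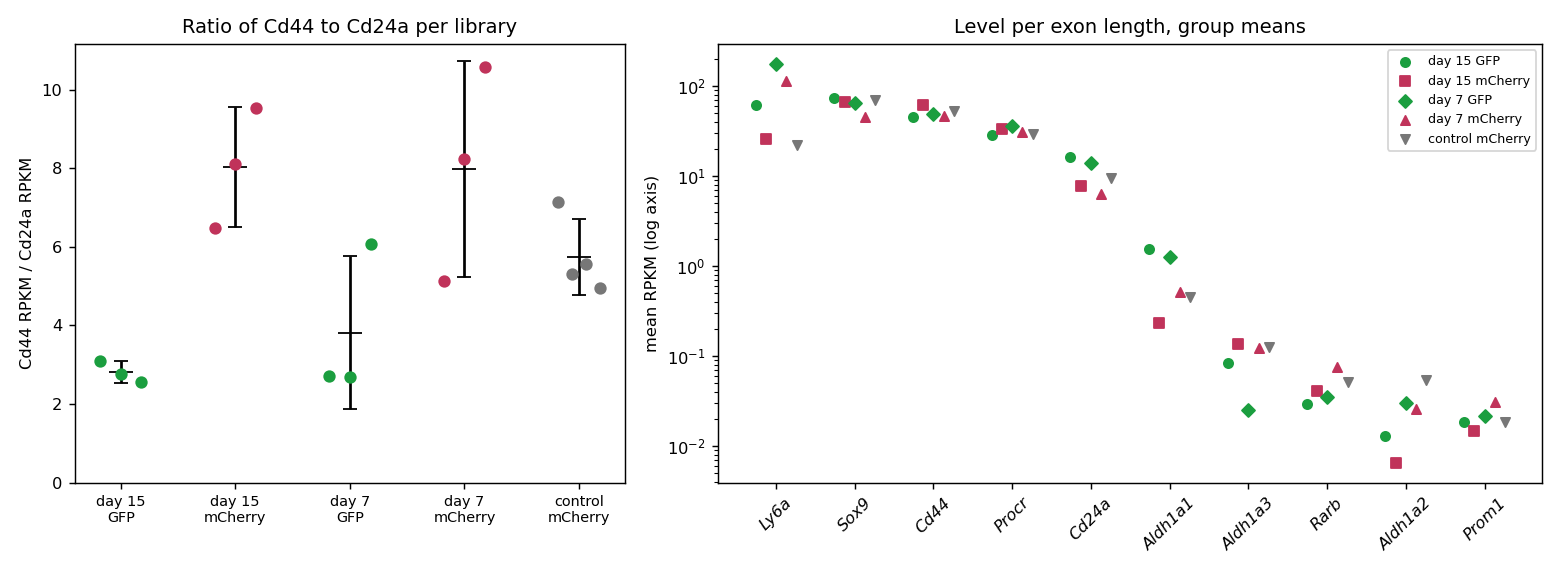
Left, the ratio of Cd44 to Cd24a RPKM (y) per library with group mean and SD, by group (x). Right, mean RPKM of each group on a log axis (y) for the 10 genes (x), ordered by their mean over groups. The day 15 GFP ratios lie at 2.56 to 3.11 and the day 15 mCherry ratios at 6.48 to 9.53, and on the right Ly6a, Sox9, Cd44, Procr and Cd24a lie far above the Aldh1a genes, Rarb and Prom1.

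Of 16 genes that make or bind the ligands of CD44 or work with it, 14 were tested on day 15, with 1 higher and 4 lower in GFP cells (median −0.20), and 13 on day 7, again with 1 higher and 4 lower (median −0.28). The shares called were 35.7% on day 15 and 38.5% on day 7, beside 19.5% and 18.2% of all genes. Has2, a hyaluronan synthase, averaged 6.11 ± 1.80 CPM in GFP cells against 22.0 ± 5.40 CPM in mCherry cells on day 15 (−1.84, adjusted p = 8.29e-04), and 4.19 ± 0.937 CPM in GFP cells against 14.0 ± 2.04 CPM in mCherry cells on day 7 (−1.72, adjusted p = 5.35e-04). Hmmr, another hyaluronan receptor with a role in mitosis, was lower on day 15 (−1.01, adjusted p = 1.93e-04) and day 7 (−0.86). Has1 (−1.08) and the protease Mmp14 (−0.44) were lower on day 15, and osteopontin, Spp1 (−0.47), and the hyaluronan-binding Tnfaip6 (−0.84) on day 7. Hyal1, a hyaluronidase, was higher on day 15 (0.68) and Met, a receptor kinase that works with CD44, on day 7 (0.66, adjusted p = 0.00358). Has2 and Hmmr were thus the genes of this list that were lower on both days.

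Ly6a (chr15:74994877-74998031, minus strand) differed widely between tumours. On day 15 it stood at 29.7, 107 and 87.7 CPM in GFP cells of tumours 1, 2 and 3, against 15.5, 50.1 and 28.0 CPM in their mCherry cells. The groups overlapped because tumour 1 was low in both colours, but GFP cells were higher in each tumour, by 0.94, 1.09 and 1.65 on the log2 scale. The fitted log2 fold change was 1.24 (SE 0.129, 95% interval 0.95 to 1.52, adjusted p = 2.11e-04). On day 7 it stood at 264, 236 and 142 CPM in GFP cells of tumours 2, 3 and 4, against 114, 221 and 82.6 CPM in their mCherry cells. The differences were 1.21, 0.10 and 0.78, so that the colours lay close together in tumour 3, and the fitted value was 0.71 (SE 0.182, adjusted p = 0.0234). Without the tumour block the adjusted p was 0.111 on day 15 and 0.219 on day 7, and without tumour 2 the day 7 value was 0.0707. The difference between the effects, 0.52 (95% interval −0.04 to 1.08), was not called (adjusted p = 0.525).

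The controls spread widely for Ly6a, at 26.6, 11.4, 5.38 and 63.6 CPM, so that a 2.82-fold higher mean fit in day 15 GFP cells was not called (log2 fold change 1.49, 95% interval −0.14 to 3.13, adjusted p = 0.188). Without control 4, the highest, it was called (log2 fold change 2.37, adjusted p = 0.0383). Day 15 mCherry cells were not called against controls (0.22, 95% interval −1.42 to 1.86, adjusted p = 0.912). The mean level was 74.8 ± 40.2 CPM in day 15 GFP cells and 31.2 ± 17.5 CPM in day 15 mCherry cells, and 214 ± 63.9 CPM in day 7 GFP cells and 139 ± 72.4 CPM in day 7 mCherry cells (SD, n = 3 each). Both day 15 groups were therefore lower than the day 7 group of the same colour, without overlap, a difference that coincides with the sequencing run and was not tested.

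No other tested gene of the Ly6 family was called higher. On day 15, 4 of 16 were tested, of which 1 was lower in GFP cells (25% called, beside 19.5% of all genes), with a median of 0.023. That gene was Gpihbp1, an endothelial lipoprotein lipase anchor, at 0.380 ± 0.277 CPM in GFP cells against 1.24 ± 0.726 CPM in mCherry cells (−1.74, adjusted p = 0.0194). Ly6e was not called (−0.21, adjusted p = 0.215). On day 7, 5 were tested and 3 were lower (60% called, beside 18.2% of all genes, median −0.43): Gpihbp1 (−5.63, adjusted p = 1.35e-04), Ly6e (−0.43, adjusted p = 0.0256) and Ly6c1 (−1.04). Ly6c1, whose coding start is printed above, averaged 7.55 ± 1.79 CPM in GFP cells against 16.8 ± 9.24 CPM in mCherry cells on day 7, the opposite direction from Ly6a. Gpihbp1 moved with the endothelial markers given above.

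Sox9 (chr11:112782224-112787760, plus strand) was higher in GFP cells on day 7. It stood there at 239, 294 and 269 CPM in GFP cells of tumours 2, 3 and 4, against 174, 194 and 206 CPM in their mCherry cells, with no overlap. The log2 fold change was 0.50 (SE 0.0997, 95% interval 0.28 to 0.72, adjusted p = 0.00775), and the adjusted p without tumour 3 was 0.117. On day 15 it stood at 317, 284 and 325 CPM in GFP cells of tumours 1, 2 and 3, against 266, 312 and 257 CPM in their mCherry cells. Tumour 2 ran against the other day 15 tumours, and the difference was not called (0.15, 95% interval −0.07 to 0.38, adjusted p = 0.322). The effect on day 15 was −0.34 relative to that on day 7 (95% interval −0.67 to −0.02, adjusted p = 0.459). The day 7 mCherry group, at 191 ± 16.3 CPM, lay below the other 4 groups, whose means were 267 to 309 CPM. Against the day 15 and control groups this difference coincides with the sequencing run and was not tested. The controls were narrow, at 279 to 302 CPM, and neither day 15 colour was called against them (GFP 0.10, adjusted p = 0.400; mCherry −0.06, adjusted p = 0.776).

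Procr (chr2:155751117-155755471, plus strand) was called in none of the comparisons. On day 15 it stood at 50.2, 62.8 and 62.9 CPM in GFP cells of tumours 1, 2 and 3, against 63.6, 71.5 and 68.5 CPM in their mCherry cells. The groups did not overlap, yet the log2 fold change of −0.22 (95% interval −0.41 to −0.02, unadjusted p = 0.0318) did not pass after adjustment (adjusted p = 0.111). On day 7 it stood at 78.9, 74.7 and 67.0 CPM in GFP cells of tumours 2, 3 and 4, against 59.5, 70.1 and 60.8 CPM in their mCherry cells (0.23, 95% interval −0.01 to 0.47, adjusted p = 0.180). All 6 tumours thus showed a small difference, lower in GFP cells in the 3 day 15 tumours and higher in the 3 day 7 tumours. The effect on day 15 relative to day 7 was −0.44 (95% interval −0.76 to −0.13, unadjusted p = 0.00870, adjusted p = 0.294). The controls stood at 56.9 to 65.5 CPM.

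Of 10 partners of the protein C receptor in coagulation signalling, 3 of 7 tested were called on day 15 and 2 of 5 tested on day 7, beside 19.5% and 18.2% of all genes. On day 15, 1 was higher and 2 lower (median −0.48), among them the protease-activated receptors F2rl1 (−2.67, adjusted p = 0.00118) and F2r (−0.73, adjusted p = 0.00469). Tfpi, the tissue factor pathway inhibitor, was higher on day 15 (0.34) and on day 7 (0.41, adjusted p = 0.0461), when F3, tissue factor itself, was also higher (0.81, adjusted p = 0.0186) among 5 tested with a median of 0.20. F2rl1 was low, at 0.325 ± 0.0423 CPM in GFP cells against 2.12 ± 0.624 CPM in mCherry cells.

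Prom1 (chr5:43993620-44102032, minus strand) had 1 to 5 counts in day 15 GFP cells against 1 to 4 in day 15 mCherry cells, 0 to 4 in day 7 GFP cells against 2 to 5 in day 7 mCherry cells, and 3 to 6 in the controls. It did not pass the filter in any comparison. Without the filter its log2 fold change was 0.31 on day 15 (adjusted p = 0.940) and −0.61 on day 7 (adjusted p = 0.902), and neither was called.

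**Figure D4:**
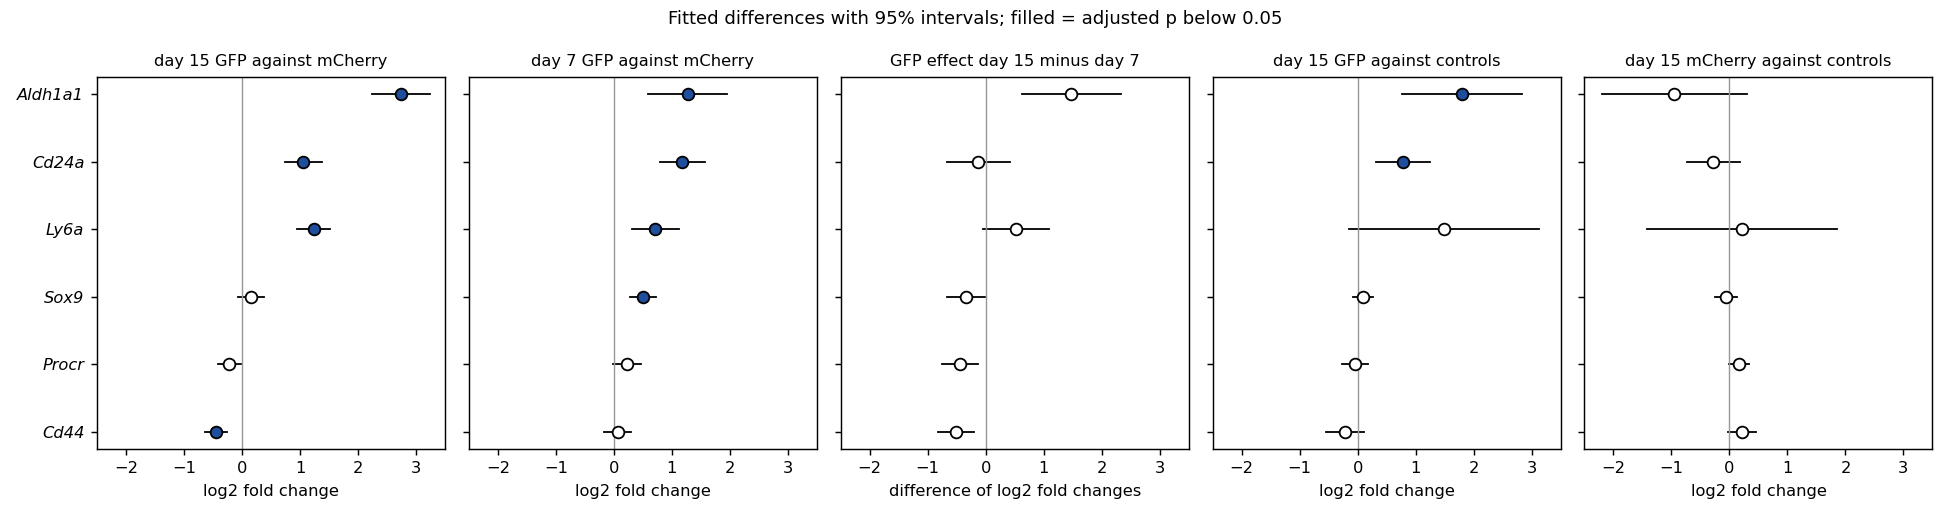
Fitted log2 fold changes (x) of the 6 genes tested in every comparison (y) with 95% intervals. Filled points have an adjusted p below 0.05 and open points do not. The GFP against mCherry panels of day 15 and day 7 hold 4 filled points each, day 15 GFP cells against controls hold Aldh1a1 and Cd24a, and the other 2 panels hold none.

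Across the remaining comparisons, 0 of 7 tested genes of the 10 were called for a difference of the GFP effect between days, beside 0.211% of 16626 genes (0.102% higher and 0.108% lower). At an unadjusted p below 0.05, 4 of them differed (Aldh1a1, Cd44, Procr and Sox9), and DESeq2 called 0. Of all 16626 genes there, 1703 had an unadjusted p below 0.05 and DESeq2 called 153. Against the controls, 2 of 7 were called in day 15 GFP cells, both higher, beside 13.1% of 14801 genes (6.09% higher and 6.97% lower), with a median log2 fold change of 0.099 beside −0.0022. In day 15 mCherry cells 0 of 7 were called against controls, 0 had an unadjusted p below 0.05 and DESeq2 called 0. Of all 14800 genes there, edgeR also called 0, with 2104 at an unadjusted p below 0.05 and 262 called by DESeq2. These comparisons share the day 15 GFP, day 15 mCherry or control libraries with each other and with the within-tumour comparison. Aldh1a3, tested here but not within tumours, had a log2 fold change of −0.58 in day 15 GFP cells (adjusted p = 0.458) and of 0.10 in day 15 mCherry cells against controls (adjusted p = 0.952).

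Of 20 basal and stem mammary genes, 3 of 12 tested were lower in GFP cells on day 15 and 2 of 9 on day 7, beside 10.6% and 9.33% of all genes called lower. None was called higher, beside 8.94% and 8.89% of all genes, a share at which 9 to 12 genes give few calls. The integrins Itgb3 and Itga6 of this list were lower on day 15 (−1.60, adjusted p = 8.47e-06, and −0.59, adjusted p = 0.00115) and on day 7 (−1.17, adjusted p = 0.00273, and −0.39, adjusted p = 0.0192). Lgr6 was the third lower gene on day 15 (−0.51). Itgb3 averaged 34.7 ± 3.71 CPM in GFP cells against 106 ± 14.0 CPM in mCherry cells on day 15. The list medians were −0.066 on day 15 and −0.26 on day 7.

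Of 16 luminal genes, 2 were higher and 2 lower on each day, among 11 tested on day 15 (median 0.023) and 7 on day 7 (median 0.0031). The shares called were 36.4% on day 15 and 57.1% on day 7, beside 19.5% and 18.2% of all genes. The milk protein gene Csn3 averaged 58.6 ± 23.1 CPM in GFP cells against 16.2 ± 2.70 CPM in mCherry cells on day 15 (1.78, adjusted p = 8.39e-05) and was higher on day 7 as well (1.61). The keratins Krt18 and Krt8 were lower on day 15 (−0.98, adjusted p = 7.19e-04, and −0.55) and on day 7 (−1.72, adjusted p = 2.41e-04, and −0.96, adjusted p = 0.00142). Notch1 was the other higher gene on day 15 (0.32) and Esr1, the oestrogen receptor, on day 7 (1.20). Among 20 other stem cell factors and transporters, 2 were higher and 2 lower on each day, with 13 tested on day 15 (30.8% called, median 0.088) and 12 on day 7 (33.3% called, median −0.29). Nes, an intermediate filament of neural progenitors, was higher on day 15 (0.33) and day 7 (0.63, adjusted p = 0.00897), with Klf4 (0.52) on day 15 and Myc (0.73, adjusted p = 8.53e-04) on day 7. The drug efflux pump genes Abcb1a (−0.52, adjusted p = 0.00606) and Abcb1b (−0.50, adjusted p = 0.00679) were lower on day 15, and Abcb1a (−0.66) and Id1 (−0.54) on day 7.

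**Figure D5:**
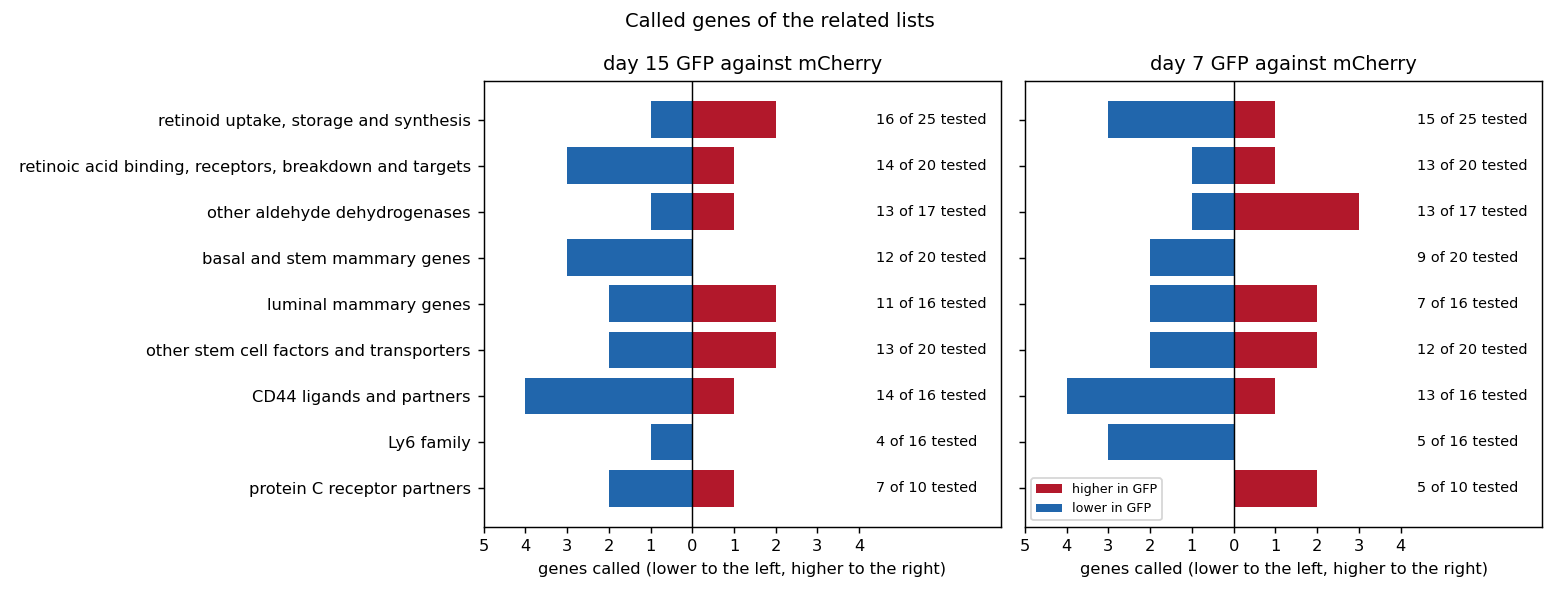
Number of called genes (x) lower in GFP cells, to the left, and higher, to the right, in 9 lists of related genes (y) on day 15 and day 7, with the number tested of each list. The basal and stem mammary list and the Ly6 family have no gene to the right on either day, and the CD44 list has 4 genes to the left on both days.

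Per exon length, the abundant genes of the 10 were Ly6a, Sox9, Cd44, Procr and Cd24a. In day 15 GFP cells Sox9 averaged 74.7 ± 5.23 RPKM, Ly6a 62.1 ± 33.4, Cd44 45.7 ± 8.70, Procr 28.9 ± 3.60 and Cd24a 16.4 ± 3.80 RPKM (SD, n = 3). In day 15 mCherry cells Sox9 averaged 67.3 ± 7.17 RPKM, Cd44 61.7 ± 6.32, Procr 33.4 ± 1.98, Ly6a 25.9 ± 14.5 and Cd24a 7.84 ± 1.57 RPKM. Aldh1a1 lay far lower, at 1.58 ± 0.118 RPKM in day 15 GFP cells and 0.236 ± 0.0645 RPKM in day 15 mCherry cells. The gene with the largest relative difference was therefore among the less abundant ones, with 145 to 193 counts per library in day 15 GFP cells and 19 to 32 in day 15 mCherry cells.

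For each of the 6 tested genes, the 2 genes with the most similar pattern of log2 CPM over the 16 libraries, after removal of the run mean, were found among 13011 genes. Likeness is Pearson's r over libraries that share tumours, colours and runs, and is given as a description. For Aldh1a1 these were Ephx1, a microsomal epoxide hydrolase (0.92), and Tmem100 (0.91). For Cd24a they were Gas5 (0.93) and Snhg12 (0.90), both non-coding hosts of small nucleolar RNAs, and for Ly6a Ptgs2os2 (0.94) and Phf11b (0.92). For Sox9 they were Pogz (0.90) and Usp42 (0.89), for Procr Cox15 (0.83) and Gpn2 (0.83), and for Cd44 Gm15473 (0.82) and E2f8 (0.81), a repressor of cell cycle genes.

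In the authors' deposited table for day 15, Aldh1a1 had a log2 fold change of 2.76 (adjusted p = 1.99e-15), Ly6a 1.24 (adjusted p = 2.34e-14), Cd24a 1.06 (adjusted p = 2.40e-08) and Cd44 −0.44 (adjusted p = 2.42e-04). In the authors' deposited table for day 7, Cd24a had 1.18 (adjusted p = 2.99e-07), Sox9 0.50 (adjusted p = 6.84e-04), Ly6a 0.72 (adjusted p = 0.00139) and Aldh1a1 1.26 (adjusted p = 0.0124). These are the genes called above on each day, with the same signs.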

How the data were processed

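The data are 16 bulk RNA libraries from sorted tumour cells. A sequencing company made the raw counts per gene for the authors, per the labels' protocols, and mm10 is the build in the submitters' processing notes. The sources used here do not name the aligner, counter, annotation or use of strand. The authors' deposited DESeq2 tables, 1 per day, set GFP against mCherry cells and per the file headers hold a log2 fold change with its standard error, the Wald score, the p-value, the adjusted p-value and baseMean, a signal that averages normalized counts.

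Everything else was computed from the counts. Rows without a symbol (176 of 49315) held at most 0.0110% of a library's counts and were left out. Numbers run from 2 to 4 in the day 7 columns but from 1 to 3 in the labels, so these columns, and those of the 4 controls, were matched as groups, and tumour numbers are column numbers. Pairing was checked on residual correlations: libraries of the same number gave 0.110 to 0.158 on day 7 and 0.0901 to 0.232 on day 15, other pairs −0.126 to 0.0067 and −0.183 to 0.0186. The day 15 pairs come from the labels' tumours, and the day 7 pairs rest on the shared column number.

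Genes passed edgeR's filterByExpr (minimum count 10, minimum total 15), had TMM normalization and were tested by quasi-likelihood (glmQLFit and glmQLFTest of edgeR 4.0.16, R 4.3.3), with p adjusted by Benjamini and Hochberg over all genes tested, at a threshold of 0.05. Tumour was a block in the tests of GFP against mCherry cells of each day and in their interaction over both days, and no block was used against controls. SE was taken from the F statistic (the log2 fold change divided by its square root), and 95% intervals use the t quantile of the fit. CPM use TMM over all 16 libraries, log2 CPM a prior count of 2, and RPKM the union exon length of GENCODE M21 (GRCm38), which also gave coordinates. Shared stretches were counted in its transcripts. SD is over libraries, each the cells of a tumour. Replicates differed by more than counting error (chi-square over its degrees of freedom 5.34 to 92.1).

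The 10 genes, the lists, the tests and the alternatives were chosen with earlier results of these data known. Text names all 10 genes, Aldh1a7, the 2 genes of smallest p per list and within-tumour comparison, and the 2 genes most alike each gene tested on both days. Some genes that this rule names are counted in their lists but not reported here. Alternatives were the DESeq2 1.42.0 test, edgeR with DESeq2's size factors, fits with no filter or with a minimum of 50 counts, fits without the tumour block, a joint fit of run 2, and leaving out each tumour or library. The fit was also run on simulated counts with large set changes, the same spread for all genes and no differences between tumours. That run does not test the tumour block or smaller changes.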

Additional observations from a re-analysis of the deposited data

Results flagged for a closer look

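Aldh1a3 in the control libraries was singled out because 1 library lies apart from the others of its group. Control 4 had 1.20 CPM (30 counts), against 0.352, 0.417 and 0.406 CPM (11, 14 and 12 counts) in controls 1, 2 and 3, and its gap to the nearest control was 0.871 of the whole range on the log2 scale. How often such a gap arises by chance among the genes and groups looked at was not tested. Control 4 was also the highest control for Aldh1a1 (4.19 CPM) and Ly6a (63.6 CPM).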

How the results depend on the processing

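Of 334 values of single genes under the alternatives, 301 kept their direction and their side of the threshold, 18 kept their direction but lost the call, 3 gained it, and 12 changed sign. These 12 all came from leaving out a tumour or library, and 0 of them was called in either fit. Leaving one out gave log2 fold changes of −0.024 to 0.16 for Cd44 on day 7, −0.20 to 0.67 for Aldh1a3 and −0.30 to 1.10 for Ly6a in day 15 mCherry cells against controls, −0.095 to 0.058 for Procr in day 15 GFP cells against controls, and −0.37 to 0.12 for Cd24a in the difference between days. The 4 calls of day 7 became 2 to 4 when a tumour was left out. The 4 calls of day 15 became 3 to 4 when a tumour was left out, and 2 without the replicate block, where Cd44 and Ly6a were lost, while day 7 kept 3 calls without that block. The 2 calls of day 15 GFP cells against controls became 0 to 3 when a library was left out. They were lost without any of the 3 GFP libraries, without control 1 and without control 3, with adjusted p of 0.0657 to 0.0982 for Aldh1a1 and 0.0523 to 0.111 for Cd24a. The difference of the GFP effect between days gave 0 calls, and 2 without the filter on low counts (Aldh1a1 and Cd44). That fit called 354 of all genes, against 35 with the filter. DESeq2, its size factors, the filter of 50 counts and, against controls, the joint fit of run 2 left each count of calls as it was. The causes of these shifts were not tested. Aldh1a2, Prom1 and Rarb had at most 14 counts in a library and did not pass the filter in any comparison. With 3 tumours per day, small differences such as that of Procr could not be called either way.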
